A study of Mus musculus with 8 samples.

Results

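The 36 genes described here build the contractile apparatus of heart muscle: the thick filament, the thin filament, titin and the M-band, and the Z-disc with its attachments. They were taken by name, as every array probe that carries a member's symbol or the accession of a member. All 36 were measured, with 49 probes, among 24388 genes tested. The tissue was the cardiac outflow tract of mouse embryos at E10.5, the short muscular vessel that joins the heart to the arterial system before it divides into aorta and pulmonary trunk. The knockout group was 4 pools (numbered 1, 2, 3 and 7) from Raldh2-/- embryos, and the wild type group was 4 pools (numbered 1, 2, 5 and 7) from their wild type littermates, each pool holding 4 tracts. Raldh2, now named Aldh1a2, makes retinoic acid from retinaldehyde. Both groups had the same exposure: the dams ate food with 0.1 mg/g all-trans-retinoic acid between E7.5 and E8.5, and the labels call the embryos of both genotypes rescued. The comparison asks how expression in the tract differs between these rescued genotypes. Each array read RNA of the whole tract, so fewer muscle cells and less RNA per muscle cell cannot be told apart.

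In a sarcomere, myosin of the thick filament pulls on actin of the thin filament when calcium binds troponin. Titin spans from the Z-disc to the M-band and sets the length of the unit, and the Z-disc anchors the actin filaments of neighbouring sarcomeres. Embryonic heart muscle expresses a mixture of isoforms, including several that are later kept for skeletal muscle or for atrial or ventricular chambers.

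The array measured each gene with probes of 60 bases, and the 5 probes below show what was hybridised for genes of the thick filament, the thin filament and the Z-disc. They were chosen for holding a reading frame without a stop codon, and all except that of Acta1 cross an intron, so their genome interval is longer than the probe. Positions are on mm9 as the scanner files give them: chr11:5798186-5798435 (minus strand) for Myl7, chr8:126416197-126416256 (minus strand) for Acta1, chr14:32023360-32023776 (plus strand) for Tnnc1, chr13:12364990-12367362 (minus strand) for Actn2 and chr7:56086063-56087977 (minus strand) for Csrp3. The sequences are written 5′ to 3′ along the probe.
Myl7: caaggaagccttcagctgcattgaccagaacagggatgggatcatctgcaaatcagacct
Acta1: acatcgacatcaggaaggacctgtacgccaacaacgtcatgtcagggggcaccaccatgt
Tnnc1: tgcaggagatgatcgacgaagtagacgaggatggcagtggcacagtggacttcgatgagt
Actn2: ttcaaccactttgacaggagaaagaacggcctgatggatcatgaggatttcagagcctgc
Csrp3: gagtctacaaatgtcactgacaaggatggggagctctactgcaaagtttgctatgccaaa

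The members' promoters were read because the genes varied together from pool to pool. RefSeq's table for GRCm38.p6 held the 250 bases before the start of 31 of the 36 genes, in 40 windows, since some genes have more than 1 start. Tnni2, Myom2, Tcap, Tnnt3 and Xirp1 had no entry. A CArG box, the binding sequence of serum response factor, stood in 8 of the 40 windows (20%), against 1.47% of all 32851 windows of that length in the table. Those windows belonged to 7 genes, namely Myl3, Myl7, Actc1, Acta1, Myom1, Ldb3 and Nebl. A site for MEF2, a muscle transcription factor, stood in 7.5% of the members' windows (Mybpc3, Ttn and Myoz2) and in 2.92% of all windows. The letters CATTCC, the core of the element that TEAD factors bind, were in 30% of members' windows and 12.6% of all. The GATA-type letters GATAA were in 30% and 22.6%, and TATAAA in 12.5% and 12.4%. Both strands were searched, and no matches of different motifs overlapped in the members' windows. These matches describe letters only and carry no measurement of binding. The 4 windows below show the boxes in place, in capitals, 5′ to 3′ towards the start of the gene. They are chr2:114052876-114053125 (minus strand) for Actc1, chr8:123894776-123895025 (minus strand) for Acta1, chr11:5898783-5899032 (minus strand) for Myl7, and chr2:91117894-91118143 (plus strand) for Mybpc3, all on GRCm38.p6. The capitals mark a CArG box at bases 47 to 38 before the start in Actc1, 73 to 64 in Acta1 and 61 to 52 in Myl7, and a MEF2 site at bases 90 to 81 in Mybpc3.
Actc1: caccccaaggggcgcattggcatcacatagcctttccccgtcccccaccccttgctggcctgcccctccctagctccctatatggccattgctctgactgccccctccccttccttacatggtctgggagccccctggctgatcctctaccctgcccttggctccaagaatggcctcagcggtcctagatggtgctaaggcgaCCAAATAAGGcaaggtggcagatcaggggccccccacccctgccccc
Acta1: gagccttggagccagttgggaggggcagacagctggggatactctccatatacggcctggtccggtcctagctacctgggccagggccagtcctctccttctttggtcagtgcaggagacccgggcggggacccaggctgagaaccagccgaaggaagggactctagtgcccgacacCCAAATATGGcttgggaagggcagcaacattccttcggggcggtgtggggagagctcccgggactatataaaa
Myl7: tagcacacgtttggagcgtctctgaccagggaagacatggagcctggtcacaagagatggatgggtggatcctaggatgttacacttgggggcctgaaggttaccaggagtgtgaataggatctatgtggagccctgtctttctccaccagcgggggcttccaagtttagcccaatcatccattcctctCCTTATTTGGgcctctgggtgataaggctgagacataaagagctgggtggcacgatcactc
Mybpc3: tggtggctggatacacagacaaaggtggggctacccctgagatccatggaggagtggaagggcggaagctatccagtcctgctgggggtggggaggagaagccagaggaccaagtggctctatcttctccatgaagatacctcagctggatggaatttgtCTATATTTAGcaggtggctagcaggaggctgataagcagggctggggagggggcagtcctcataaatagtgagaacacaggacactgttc

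All values are log2 signals scaled to the 75th percentile of their array, in the order knockout pools 1, 2, 3, 7 and wild type pools 1, 2, 5, 7. A value compares one gene between pools, and not 1 gene with another, because each probe has its own brightness. The array of wild type 1 stood apart from the other 7: 94.7% of its spots were well above background, against 53.3% to 63.2% elsewhere, and its median signal was 2023, against 40.0 to 83.0. The fitted differences are therefore given with all 8 arrays and with the 7 that leave out wild type 1, where the wild type group is pools 2, 5 and 7. All knockout arrays lay in one row of the slide and all wild type arrays in the other, so genotype and slide row cannot be told apart. The targeted gene, Aldh1a2, was 2.02, 2.01, 1.87 and 0.059 in knockout tracts, against 1.92, 3.21, 2.98 and 3.65 in wild type tracts. Its difference was -1.45 ± 0.55 on 8 arrays and -1.79 ± 0.50 on 7 (limma adjusted p = 0.735 and 0.366), and whether the probe lies in the deleted part is not known here.

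Heart muscle RNA was measured in every pool. All 36 members, including the heart muscle genes Myh6, Tnnt2, Actn2 and Mybpc3, were well above background in all 8 pools. The members' values shared a pattern over the pools. Wild type 1 had the lowest value of the 8 pools in 30 members, and the highest in 4 (Tnnt3, Tnnc2, Lmod2 and Nebl). Those 4 were dim, with signals below 0 in each of the other 7 pools, as were Myom2 and Ckm. Among the other 7 pools, wild type 7 had the highest value in 32 members, and the exceptions were highest in knockout 3 (Tnni2, Myom2 and Ckm) or knockout 7 (Tnnt3). The lowest value of those 7 pools was in wild type 2 for 15 members and in knockout 7 for 14. Of those 7 arrays, that of wild type 7 had the smallest share of spots well above background (53.3%) and the lowest median signal (40.0). That of knockout 7 had the largest share (63.2%) and the highest median signal (83.0). The 75th percentile, by which each array's signals are divided, was largest in wild type 1 (4211) and smallest in wild type 7 (659). It ran from 880 to 1134 in the other arrays. A larger divisor gives lower scaled values. The part of array signal and of this divisor in the pool order was not tested. Averaged over the members, and centred on the mean of those 7 pools, the log2 signal was -0.15, -0.0049, 0.068 and -0.25 in the knockout pools, against -1.23, -0.28, 0.13 and 0.48 in the wild type pools. The knockout means lay inside the range of the wild type means, with or without wild type 1.

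**Figure D1:**
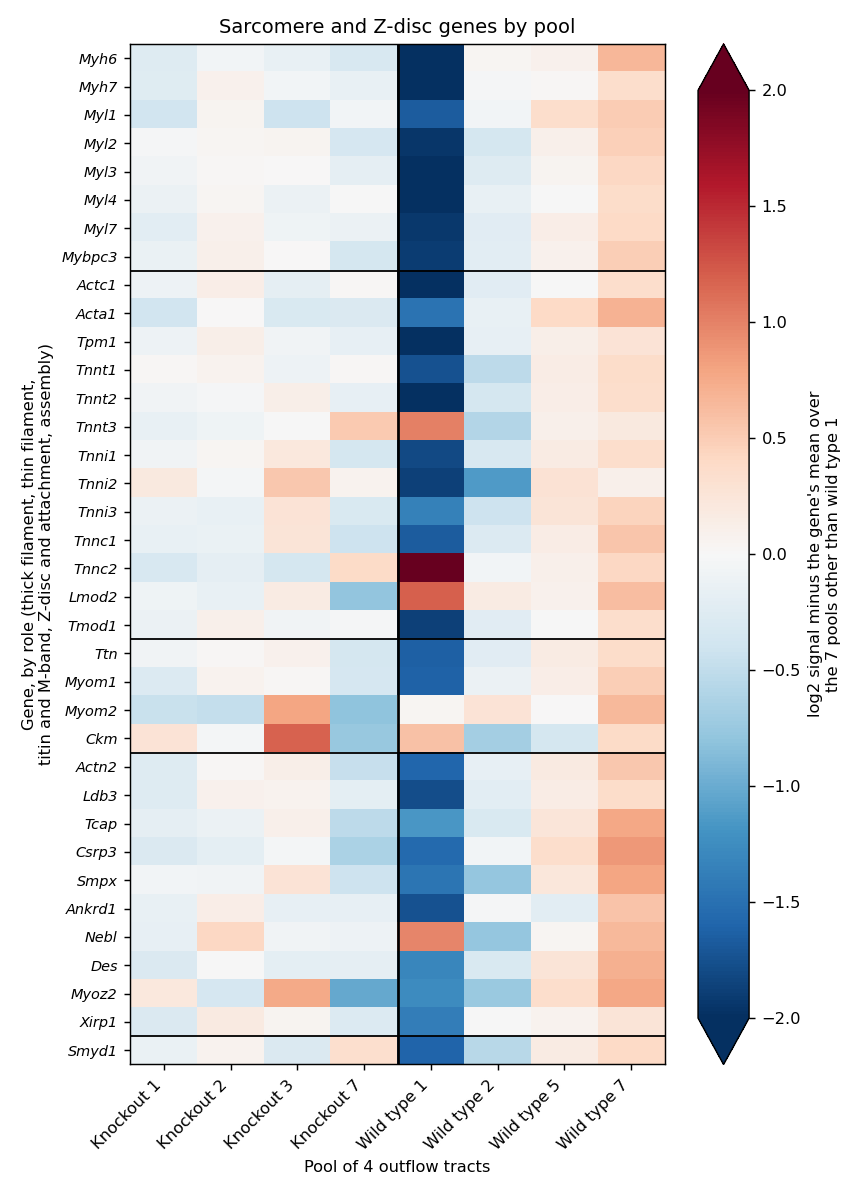
Each row is a member, ordered by role, and each column a pool of 4 outflow tracts, with knockout pools left of wild type pools. Colour is the log2 signal minus the gene's mean over the 7 pools other than wild type 1, in log2 units and limited to 2 in either direction. The column of wild type 1 is the lowest for 30 of 36 genes, and the column of wild type 7 is the highest of the remaining pools for 32.

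No member passed the test between genotypes. With limma and Benjamini-Hochberg adjustment over all genes tested, 0 of 36 members had an adjusted p under 0.05 on 8 arrays (background 0%) and 0 on 7 (background 0%), and the smallest adjusted p of a member was 0.735 and 0.418. The smallest of any gene was 0.494 on 8 arrays and 0.218 on 7. At an unadjusted p under 0.05, no member was lower on 8 arrays, where 1.12% of all genes were, and no member was higher, where 0.656% were. On 7 arrays 4 members were lower at that level, where 4.36% of all genes were, and none was higher, where 6.25% were. Those 4 were Csrp3, Acta1, Myh6 and Myl1. A share of 4 in 36 was above the background share, but none of the 4 passed the adjustment. The members varied together from pool to pool, so these 4 are not separate results. Without wild type 1 and wild type 7 together, 0 members were lower at that level. The share of all genes in that fit was not counted.

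The sign of the fitted difference, knockout minus wild type, turned with wild type 1. It was below 0 for 9 of 36 members on 8 arrays, where 43% of all genes were below 0, and for 31 of 36 on 7 arrays, where 40.7% were. The sign changed between these fits for 26 members. The median difference of the members was 0.22 on 8 arrays and -0.18 on 7, beside 0.13 and 0.053 over all genes. The median SE of a member was 0.47 on 8 arrays and 0.21 on 7, and the difference was smaller than its own SE for 32 members on 8 arrays and 17 on 7. The 7-array pattern depended in part on wild type 7: without wild type 1 and wild type 7 together, 19 of 36 members were below 0 and their median was -0.031. In that fit 38.8% of all genes were below 0, and the median over all genes was 0.054. The knockout and wild type values did not overlap for 0 members on 8 arrays, against 5.49% of all genes, and for 1 member on 7 arrays, against 11.4% of all genes. That member was Myh6, by its brightest probe, while the groups overlapped on its second probe. This count depended on the scaling. On 8 arrays it was 5 members with quantile scaling, against 6.6% of all genes, and 5 with normexp background correction, against 6.46%. On 7 arrays it was 5 with each of these, against 12.1% and 11.99% of all genes.

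**Figure D2:**
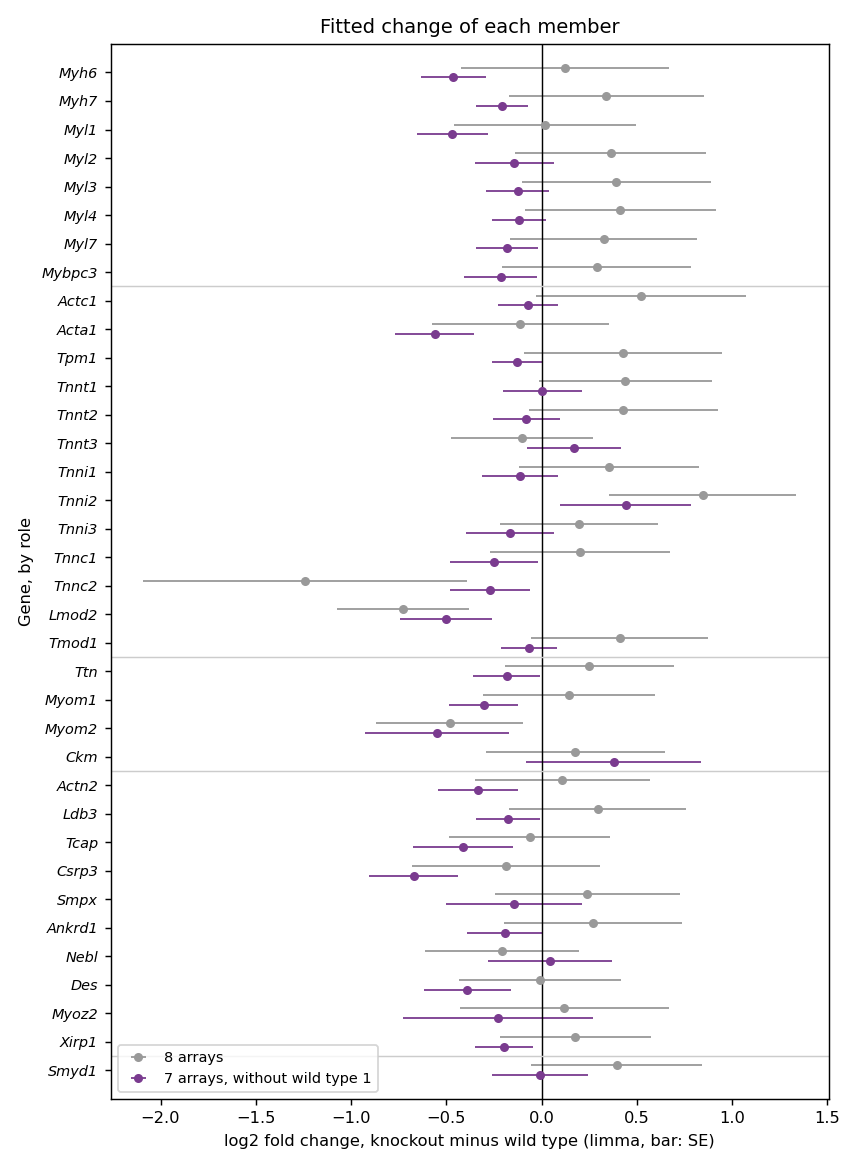
Points are the fitted log2 difference of each member, knockout minus wild type, and bars are 1 SE from limma. Grey points use 8 arrays and purple points the 7 arrays without wild type 1; 9 grey and 31 purple points of 36 lie below 0, and the bar reaches the line at 0 for 32 members in grey and 17 in purple.

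With each gene read by its brightest probe, the thick filament was the structure whose members pointed one way in each fit. All 8 thick filament genes were above 0 on 8 arrays and below 0 on 7, with medians of 0.33 and -0.19. The 7-array differences ran from -0.47 to -0.12. On 8 arrays the second probes of Myh6 and Myl1 were below 0, at -0.34 and -0.12. Myh6, the alpha myosin heavy chain typical of the atria and of the adult mouse heart, measured 7.13, 7.33, 7.24 and 7.08 in the knockout pools, against 5.32, 7.43, 7.48 and 8.07 in the wild type pools. On this probe, leaving wild type 1 aside, all knockout pools lay below all wild type pools, with wild type 7 well above the rest. The nearest pools were knockout 2 and wild type 2. Its means were 7.20 ± 0.11 (SD, n = 4) in knockout and 7.66 ± 0.35 (SD, n = 3) in wild type without wild type 1. The difference was 0.12 ± 0.55 on 8 arrays and -0.46 ± 0.17 on 7, and did not pass (limma adjusted p = 0.433 on 7 arrays). Myh7, the beta heavy chain that prevails in the embryonic ventricle, measured 8.37, 8.70, 8.56 and 8.46 in the knockout pools, against 6.54, 8.59, 8.63 and 8.96 in the wild type pools. Here knockout 2 lay above wild type 2 and wild type 5, so the groups overlapped, and the difference was 0.34 ± 0.51 on 8 arrays and -0.21 ± 0.13 on 7.

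Myosin light chains are grouped by the muscle in which they later persist. Myl1, an essential light chain of fast skeletal muscle that the early heart also makes, had 3.93, 4.37, 3.91 and 4.27 in the knockout pools, against 2.65, 4.26, 4.68 and 4.83 in the wild type pools. Wild type 5 and wild type 7 exceeded every knockout pool, and wild type 2 lay among them. The difference was 0.017 ± 0.48 on 8 arrays and -0.47 ± 0.18 on 7 (limma adjusted p = 0.45 on 7 arrays). For Myl2, the ventricular regulatory light chain, the signals were 7.84, 7.90, 7.91 and 7.52 in the knockout pools, against 5.91, 7.51, 7.96 and 8.34 in the wild type pools. For Myl7, the regulatory light chain of the atria and outflow tract, they were 7.13, 7.43, 7.27 and 7.23 in the knockout pools, against 5.42, 7.12, 7.48 and 7.75 in the wild type pools. In both, wild type 2 was the lowest and wild type 7 the highest of the 7 pools, on either side of the knockout pools. The differences were 0.36 ± 0.50 on 8 arrays and -0.14 ± 0.21 on 7 for Myl2, and 0.33 ± 0.49 on 8 arrays and -0.18 ± 0.16 on 7 for Myl7.

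The essential light chains Myl3, of ventricle and slow muscle, and Myl4, of atrium and embryonic heart, had probes among the 5 brightest of the members. Myl3 had 8.35, 8.45, 8.43 and 8.25 in the knockout pools, against 6.42, 8.17, 8.48 and 8.84 in the wild type pools. Myl4 had 8.39, 8.55, 8.40 and 8.5 in the knockout pools, against 6.46, 8.36, 8.5 and 8.88 in the wild type pools. Their knockout pools sat close together and between wild type 2 and wild type 7. The differences were 0.39 ± 0.50 on 8 arrays and -0.13 ± 0.16 on 7 for Myl3, and 0.41 ± 0.50 on 8 arrays and -0.12 ± 0.14 on 7 for Myl4, all smaller than their SE. Mybpc3, the cardiac myosin-binding protein C, differed by 0.29 ± 0.50 on 8 arrays and -0.22 ± 0.19 on 7; its values ran from 7.16 to 7.62 in the knockout pools, against 5.62 to 8.01 in the wild type pools.

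**Figure D3:**
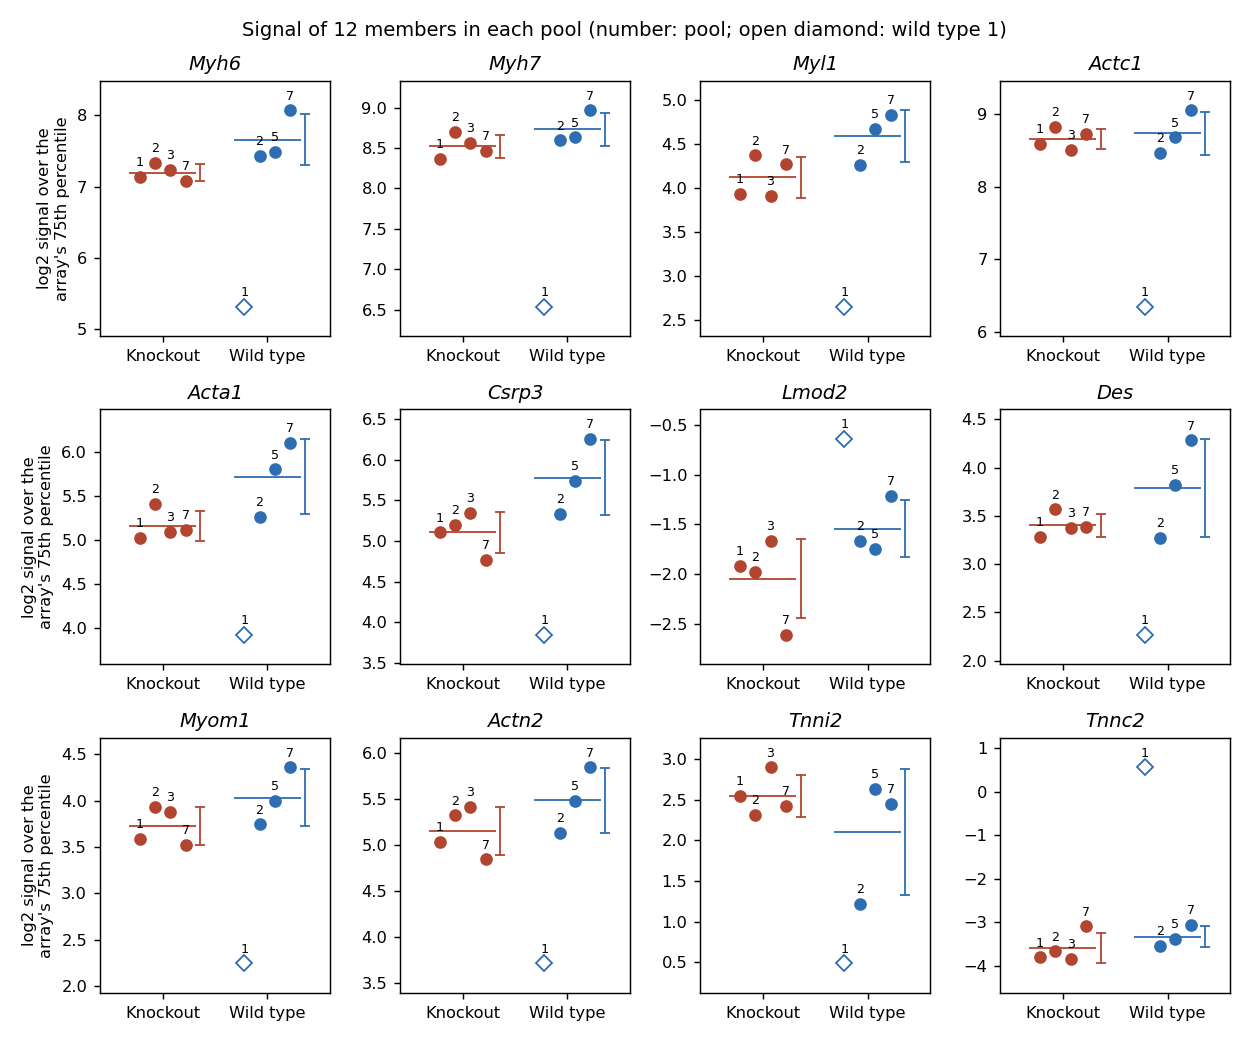
Signal of 12 members in log2 units, scaled to the array's 75th percentile, with 1 point per pool and its number above. Knockout pools are red and wild type pools blue, lines and bars give the mean and SD without wild type 1, and the open diamond is wild type 1. Myh6 is the panel in which no knockout point reaches a filled wild type point, and Lmod2 and Tnnc2 are the panels in which the diamond is highest.

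The thin filament members were more mixed. Of 13 genes, 4 were below 0 on 8 arrays and 10 on 7, with medians of 0.35 and -0.11 and 7-array differences from -0.56 to 0.44. Acta1, the skeletal alpha-actin, which the embryonic heart also expresses, had 5.02, 5.41, 5.10 and 5.12 in the knockout pools, against 3.92, 5.26, 5.80 and 6.10 in the wild type pools. Wild type 5 and wild type 7 were above every knockout pool, while wild type 2 was below knockout 2. The means without wild type 1 were 5.16 ± 0.17 (SD, n = 4) in knockout and 5.72 ± 0.43 (SD, n = 3) in wild type, and the difference was -0.11 ± 0.46 on 8 arrays and -0.56 ± 0.21 on 7 (limma adjusted p = 0.433 on 7 arrays). Actc1, the cardiac alpha-actin, with the brightest probe of the members, had 8.59, 8.82, 8.51 and 8.72 in the knockout pools, against 6.35, 8.47, 8.68 and 9.05 in the wild type pools. Its knockout pools were all inside the range of wild type pools 2, 5 and 7, and the difference was 0.52 ± 0.55 on 8 arrays and -0.073 ± 0.16 on 7. Tpm1, the alpha-tropomyosin that lies along actin, had 7.90, 8.12, 7.93 and 7.83 in the knockout pools, against 5.85, 7.84, 8.11 and 8.27 in the wild type pools, with a difference of 0.43 ± 0.52 on 8 arrays and -0.13 ± 0.13 on 7 and overlapping groups.

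Troponin T ties the complex to tropomyosin, troponin I holds contraction back and troponin C binds calcium. The cardiac forms had overlapping groups: the differences on 8 and 7 arrays were 0.43 ± 0.50 and -0.081 ± 0.18 for Tnnt2, 0.20 ± 0.42 and -0.17 ± 0.23 for Tnni3, and 0.20 ± 0.47 and -0.25 ± 0.23 for Tnnc1. Of the slow skeletal forms, Tnnt1 had 5.75, 5.79, 5.63 and 5.74 in the knockout pools, against 3.98, 5.20, 5.88 and 6.09 in the wild type pools. The 4 knockout pools were nearly level, with wild type 2 below and wild type 5 and wild type 7 above them. Tnni1, which is also the troponin I of the fetal heart, had 6.39, 6.50, 6.67 and 6.11 in the knockout pools, against 4.66, 6.15, 6.63 and 6.82 in the wild type pools. The groups overlapped for both, and the differences were 0.44 ± 0.45 on 8 arrays and 0.0045 ± 0.21 on 7 for Tnnt1, and 0.35 ± 0.47 on 8 arrays and -0.11 ± 0.20 on 7 for Tnni1.

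The fast skeletal troponins departed from the pool order of most members. Tnni2 had 2.55, 2.31, 2.90 and 2.42 in the knockout pools, against 0.48, 1.22, 2.64 and 2.45 in the wild type pools. Wild type 1 and wild type 2 were low and the other 6 pools close, so that Tnni2 was the member with the largest positive difference in both fits, at 0.85 ± 0.49 on 8 arrays and 0.44 ± 0.34 on 7, without passing (limma adjusted p = 0.657 on 7 arrays). Tnnt3 had -1.44, -1.38, -1.29 and -0.76 in the knockout pools, against -0.29, -1.88, -1.19 and -1.09 in the wild type pools. Wild type 1 and knockout 7 were the high pools and wild type 2 the low one, and the difference was -0.11 ± 0.37 on 8 arrays and 0.17 ± 0.25 on 7. Tnnc2 had -3.80, -3.66, -3.83 and -3.09 in the knockout pools, against 0.56, -3.53, -3.38 and -3.07 in the wild type pools. Its value in wild type 1 was far above all others, where knockout 7 and wild type 7 were the next highest, and the difference was -1.24 ± 0.85 on 8 arrays and -0.27 ± 0.21 on 7. Of 14 genes of the skeletal muscle lineage, 5 passed the filter on dim probes. Outside wild type 1, Cacna1s, Chrng and Mymk, genes of the calcium channel, the acetylcholine receptor and cell fusion, were well above background in 4 knockout pools and 3 wild type pools, and Pax3, a regulator of muscle precursors, and Cdh15, a cadherin, in 4 and 2. The muscle regulators Myf6, Myod1 and Myog were so in 1 knockout pool and 0 wild type pools, Chrnd in 2 and 0, and Msc in 1 and 1. Myf5, Pax7, Chrna1 and Musk were so in none of these pools. Cacna1s had 1.13, 1.33, 1.05 and 1.31 in the knockout pools, against -0.023, 0.38, 0.72 and 0.61 in the wild type pools, without overlap. Its difference was 0.78 ± 0.27 on 8 arrays and 0.64 ± 0.13 on 7, without passing (limma adjusted p = 0.735 and 0.329). The centred mean of the 5 genes was -0.36, -0.054, 0.040 and 1.14 in the knockout pools, against 1.6, -0.062, -0.28 and -0.43 in the wild type pools, so that knockout 7 and wild type 1 were high, as they were for Tnnt3. Some dim genes outside this list were also high in wild type 1. Cacna1c, a heart calcium channel gene, was -0.16 there, against -3.41 to -2.67 in the other 7 pools. The epithelial gene Epcam was 0.74 there, against -6.64 to -1.53. The part of that array's raised signals in these values was not tested. The part of skeletal precursors in the fast troponin values was not tested.

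Filament length is set at the pointed end of actin, where Tmod1 caps and Lmod2, a leiomodin, elongates. Lmod2 had -1.92, -1.98, -1.67 and -2.61 in the knockout pools, against -0.64, -1.66, -1.75 and -1.21 in the wild type pools. Knockout 7 was the lowest pool and wild type 1 the highest, and knockout 3 lay among the wild type pools. Lmod2 was below 0 in both fits, at -0.73 ± 0.35 on 8 arrays and -0.50 ± 0.24 on 7, and had the smallest unadjusted p of any member on 8 arrays without passing the adjustment (limma adjusted p = 0.735, and 0.507 on 7 arrays). Tmod1 had 3.17, 3.38, 3.21 and 3.27 in the knockout pools, against 1.42, 3.05, 3.29 and 3.63 in the wild type pools. Except for wild type 1 its pools lay close together and the groups overlapped, with a difference of 0.41 ± 0.46 on 8 arrays and -0.066 ± 0.15 on 7.

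Titin and the M-band gave 1 of 4 genes below 0 on 8 arrays and 3 on 7. Ttn itself, the giant spring of the sarcomere, differed by 0.25 ± 0.44 on 8 arrays and -0.18 ± 0.18 on 7. Myom1, a myomesin that links thick filaments at the M-band, had 3.59, 3.93, 3.88 and 3.52 in the knockout pools, against 2.25, 3.74, 4.00 and 4.36 in the wild type pools. Wild type 7 was above the rest, wild type 2 lay among the knockout pools, and the difference was 0.14 ± 0.45 on 8 arrays and -0.30 ± 0.18 on 7. Myom2, the myomesin of adult-type M-bands, had -2.29, -2.33, -1.06 and -2.66 in the knockout pools, against -1.81, -1.57, -1.84 and -1.20 in the wild type pools. The knockout group held both the highest and the lowest pool, knockout 3 and knockout 7, and the difference was -0.48 ± 0.39 on 8 arrays and -0.55 ± 0.38 on 7. The same pools marked the extremes of Ckm, the muscle creatine kinase that docks at the M-band, at -2.25 in knockout 3 and -4.17 in knockout 7, against -4.10 to -2.83 in the wild type pools. The difference of Ckm was 0.18 ± 0.47 on 8 arrays and 0.38 ± 0.46 on 7.

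The Z-disc and its attachments held the largest 7-array difference of any member. Csrp3, the muscle LIM protein of the Z-disc, had 5.11, 5.20, 5.35 and 4.77 in the knockout pools, against 3.84, 5.34, 5.74 and 6.26 in the wild type pools. Wild type 5 and wild type 7 were above every knockout pool, and wild type 2 was just below knockout 3, so the groups overlapped by 1 pair of pools. Without wild type 1 the means were 5.11 ± 0.25 (SD, n = 4) in knockout and 5.78 ± 0.46 (SD, n = 3) in wild type, a difference of -0.67 ± 0.24, or 1.59-fold, that did not pass (limma adjusted p = 0.418). On 8 arrays it was -0.19 ± 0.49. Des, the intermediate filament that ties Z-discs of neighbouring myofibrils together, had 3.28, 3.57, 3.37 and 3.38 in the knockout pools, against 2.27, 3.27, 3.82 and 4.28 in the wild type pools. Wild type 5 and wild type 7 were again above the knockout pools and wild type 2 below them, and the difference was -0.0084 ± 0.42 on 8 arrays and -0.39 ± 0.23 on 7. Actn2, the alpha-actinin that crosslinks actin in the Z-disc, had 5.04, 5.32, 5.42 and 4.84 in the knockout pools, against 3.72, 5.14, 5.48 and 5.84 in the wild type pools. Here knockout 2 and knockout 3 lay above wild type 2, and the difference was 0.11 ± 0.46 on 8 arrays and -0.33 ± 0.21 on 7.

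Across the 10 Z-disc and attachment genes, 4 were below 0 on 8 arrays and 9 on 7, with medians of 0.11 and -0.21. Wild type 7 was the highest of the 7 pools in all 10. Tcap, which caps titin at the Z-disc, had a difference of -0.062 ± 0.42 on 8 arrays and -0.41 ± 0.26 on 7. For Ldb3, a PDZ-LIM partner of alpha-actinin, it was 0.30 ± 0.46 on 8 arrays and -0.17 ± 0.17 on 7, and for Xirp1, a Xin repeat protein of cell junctions, 0.18 ± 0.40 on 8 arrays and -0.20 ± 0.15 on 7. Ankrd1, a stretch-responsive partner of titin, had 0.27 ± 0.47 on 8 arrays and -0.19 ± 0.20 on 7. Smpx, a small striated muscle protein, had 0.24 ± 0.49 on 8 arrays and -0.15 ± 0.36 on 7. For Myoz2, a calcineurin-binding Z-disc protein, the difference was 0.12 ± 0.55 on 8 arrays and -0.23 ± 0.50 on 7, with values from 0.054 to 1.83 in the knockout pools, against -0.18 to 1.85 in the wild type pools. Nebl, the nebulette of the cardiac Z-disc, was the 1 gene of the 10 above 0 on 7 arrays, at -0.21 ± 0.40 on 8 arrays and 0.045 ± 0.33 on 7. Knockout 7 was the lowest of the 7 pools for Tcap, Csrp3, Actn2 and Myoz2.

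Smyd1, a methyltransferase needed for myosin assembly, was the only assembly factor in the list. It had 2.36, 2.55, 2.19 and 2.82 in the knockout pools, against 0.88, 1.93, 2.65 and 2.88 in the wild type pools. Its pools did not follow the filament genes throughout, since knockout 7 lay below wild type 7 only, and the difference was 0.39 ± 0.45 on 8 arrays and -0.0085 ± 0.25 on 7.

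Because members shared a pool-wide shift, the difference between 2 members on the same array was also read, to compare the shift of their signals. Each such difference was centred on its mean over the 7 pools other than wild type 1, and 4 isoform pairs were examined. Centring takes out a constant offset between the 2 probes. It does not take out an array's unequal scaling of bright and dim probes, whose part in these differences was not tested. Myh6 minus Myh7 was -0.016, -0.15, -0.10 and -0.17 in the knockout pools, against 0.00021, 0.053, 0.066 and 0.32 in the wild type pools. Acta1 minus Actc1 was -0.28, -0.12, -0.12 and -0.32 in the knockout pools, against 0.86, 0.080, 0.41 and 0.34 in the wild type pools. In both pairs all 4 knockout values were under all 4 wild type values, that of wild type 1 included. How often other pairs of genes separate in this way was not counted. For single genes, 5.49% were without overlap on 8 arrays and 11.4% on 7. Acta1 and Myh6 were also among the 4 members lower at an unadjusted limma p under 0.05 on 7 arrays, so the pairs partly restate their values. Myl2 minus Myl7 was 0.20, -0.045, 0.14 and -0.22 in the knockout pools, against -0.020, -0.12, -0.028 and 0.080 in the wild type pools. Tnni3 minus Tnni1 was -0.036, -0.18, 0.069 and 0.061 in the knockout pools, against 0.45, -0.099, 0.098 and 0.090 in the wild type pools, and the groups overlapped in these 2 pairs. The knockout minus wild type difference over 7 pools was -0.25 for Myh6 minus Myh7, -0.49 for Acta1 minus Actc1, 0.039 for Myl2 minus Myl7 and -0.052 for Tnni3 minus Tnni1. No test is given, as the members were chosen with results known, and the pairs share their arrays. The probes of a pair differ in sequence: the best ungapped alignment matched 21 of 58 bases for Myh6 and Myh7 and 18 of 57 for Acta1 and Actc1. This compares probe with probe, and does not show whether a probe binds the mRNA of its partner. Whether the Acta1 probe, the Myh6 probe or the others also bind related mRNAs could not be looked up.

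**Figure D4:**
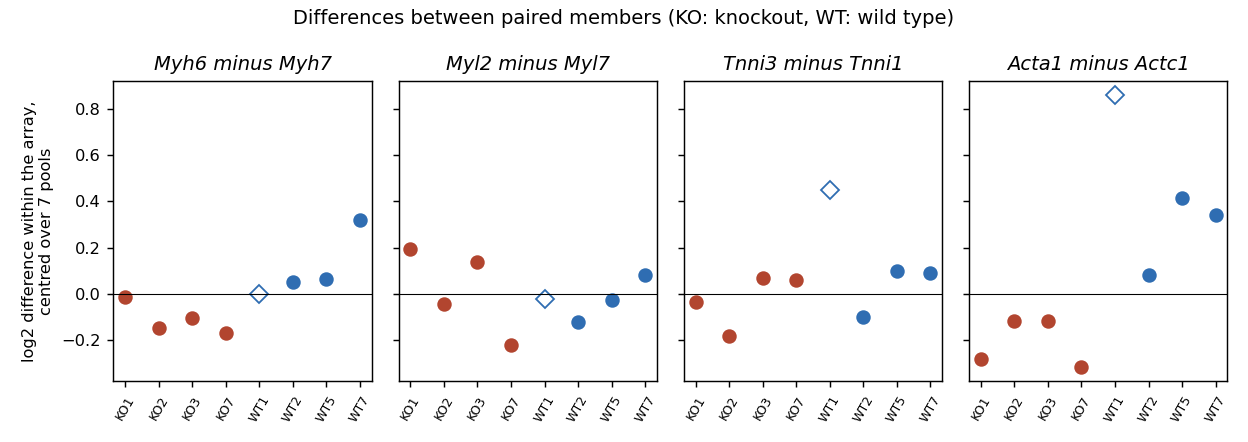
Difference in log2 signal between 2 members on the same array, in each pool, centred on the mean of the 7 pools other than wild type 1 (open diamond). Knockout pools are red and stand left of wild type pools in blue; the 2 groups are apart for Myh6 minus Myh7 and for Acta1 minus Actc1, and overlap for Myl2 minus Myl7 and Tnni3 minus Tnni1.

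Other probes of the same genes give a check on single probes. Of the 49 probes, 48 were kept, and the exception, a probe for Smpx on the X chromosome (154140608 to 154140667, mm9), was well above background in wild type 1 only. In a fit across 32384 probes on 7 arrays, 40 of the 48 were below 0. Of the 7 members with more than 1 kept probe, 1 had probes of opposite sign on 7 arrays and 5 on 8 arrays. The 5 were Myh6, Myl1, Ldb3, Smyd1 and Ttn, and all 5 Tpm1 probes were above 0 on 8 arrays. The probe values that follow are from the 7-array fit. The second Myl1 probe, which spans 4248 bases of chromosome 1 on mm9, gave -0.61 ± 0.16, against -0.47 ± 0.19 for the probe that stands for the gene in this fit. Both Myl1 probes missed the threshold in that fit (limma adjusted p = 0.381 and 0.471). The second Myh6 probe gave -0.41 ± 0.29, beside -0.46 ± 0.17 for the first. On the second probe the groups overlapped, since wild type 2 was 0.13, under the knockout pools at 0.26 to 0.44. The separation of Myh6 therefore rests on its first probe, and Myh6 minus Myh7 was read with that probe only. The 4 Ttn probes ran from -0.33 to -0.16. Tpm1, a gene with many splice forms, had 5 probes of mixed sign: 0.14 ± 0.17 and 0.33 ± 0.33 for 2 of them, and -0.19 ± 0.11, -0.13 ± 0.13 and -0.060 ± 0.14 for the others. The probes at -0.13 and -0.060 overlap on the genome and are no independent pair.

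The rest of the muscle programme was read from lists of genes that are not members. Among other sarcomere genes, 18 of 46 measured were below 0 on 8 arrays, with a median difference of 0.098, and 27 of 45 on 7 arrays, with a median of -0.10. At an unadjusted p under 0.05, 1 was lower and 0 were higher on 8 arrays, and 3 were lower and 2 higher on 7, beside 1.12% and 0.656% of all genes on 8 arrays and 4.36% and 6.25% on 7. Cavin4, a caveolar protein of muscle, had -1.51, -1.46, -1.42 and -1.62 in the knockout pools, against -1.21, -0.99, -0.86 and -0.57 in the wild type pools, without overlap even with wild type 1. Its difference was -0.60 ± 0.25 on 8 arrays and -0.70 ± 0.13 on 7 (limma adjusted p = 0.326 on 7 arrays). Flnc, a filamin of the Z-disc, differed by 0.0097 ± 0.50 on 8 arrays and -0.50 ± 0.20 on 7. Mybpc2, the fast skeletal myosin-binding protein C, is 1 of the 3 counted as lower on 7 arrays. It was well above background in 1 of 4 knockout pools and in 3 of 3 wild type pools other than pool 1, so it entered the fit only through the wild type pools, and no difference is given for it. Of 23 transcriptional regulators of muscle, 6 were below 0 on 8 arrays, with a median of 0.37, and 15 on 7, with a median of -0.087. None was lower at an unadjusted p under 0.05 on 8 arrays, where 1.12% of all genes were. On 7 arrays 1 was, where 4.36% of all genes were, so 1 in 23 is near the background share. It was Mef2d, a MEF2 factor, at -0.45 ± 0.23 on 8 arrays and -0.39 ± 0.10 on 7 (limma adjusted p = 0.349 on 7). The next smallest p-values on 7 arrays were those of Mef2c and Cited2. Mef2c, another MEF2 factor, had -0.31 ± 0.24 on 8 arrays and -0.28 ± 0.12 on 7. Cited2, a transcriptional co-regulator, had 0.038 ± 0.43 on 8 arrays and -0.38 ± 0.18 on 7. None of these genes passed the adjustment.

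Other heart muscle genes shared the pool pattern on average. Of 19 measured, 7 were below 0 on 8 arrays, with a median of 0.26, and 15 on 7, with a median of -0.19, where 43% and 40.7% of all genes were below 0. None was lower at an unadjusted p under 0.05 on 8 arrays, where 1.12% of all genes were. On 7 arrays 3 were (Nppa, Nppb and Ryr2), where 4.36% of all genes were. The centred mean of these 19 genes was -0.28, -0.23, 0.17 and -0.35 in the knockout pools. In the wild type pools it was -1.27, -0.15, 0.14 and 0.70. Wild type 1 and wild type 7 were the extremes, as they were for the members. These means include Nppa and Nppb, which varied most between pools of the 19 genes. Nppb ran from 0.12 to 1.40 in the knockout pools, against 1.00 to 4.81 in the wild type pools. Means without Nppa and Nppb were not taken. The natriuretic peptide genes Nppa and Nppb were low against wild type 2, 5 and 7, with differences of -2.59 ± 0.93 and -2.23 ± 0.70 on 7 arrays (limma adjusted p = 0.424 and 0.384). On 8 arrays these were -1.70 ± 1.09 for Nppa and -1.70 ± 0.76 for Nppb (limma adjusted p = 0.735 for both). Nppa had 1.52, 1.32, 4.01 and 3.61 in the knockout pools, against 1.65, 4.24, 4.39 and 6.97 in the wild type pools. Fabp3, a fatty acid-binding protein, had 0.26 ± 0.46 on 8 arrays and -0.19 ± 0.20 on 7. Cox6a2, a muscle subunit of cytochrome oxidase, had 0.28 ± 0.52 on 8 arrays and -0.23 ± 0.26 on 7.

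Marker lists of other cells also varied between the pools, not all in the same way. In wild type 7, where the members were highest at 0.48, the centred mean was -0.65 for 11 neural crest and mesenchyme genes, -0.29 for 12 smooth muscle genes, -0.64 for 11 erythroid genes and -0.93 for 12 epithelial and endodermal genes. The smooth muscle list was split: Acta2, Tagln and Cnn1 were highest of the 7 pools in wild type 7, at 8.07, 7.47 and 7.20. Myh11, Mylk, Synpo2, Cald1, Itga8 and Notch3 were lowest there. Myh11, at -6.25 in wild type 7, and Dlx5 of the crest list, at -6.66, were dim. Each was well above background in 2 of wild type 2, 5 and 7. In wild type 2, where the members averaged -0.28, the erythroid mean was 0.79 and the epithelial mean 1.24. In knockout 7, where they averaged -0.25, these were 0.54 and 1.13. The erythroid means ranged from -0.58 to 0.84 in the knockout pools, against -2.35 to 0.79 in the wild type pools, and the epithelial means from -1.04 to 1.13 in the knockout pools, against -0.93 to 1.36 in the wild type pools. The members of the epithelial list did not vary together. Its mean includes dim genes with large swings: Epcam, Pax9, Cldn6 and Shh were between -6.64 and -6.79 in wild type 7, and each was well above background in 3 of 4 knockout pools and in 1 or 2 of wild type 2, 5 and 7. The bright keratins went the other way there. Krt8, Krt18 and Krt19 were highest of the 7 pools in wild type 7, at 4.50, 5.32 and 4.50, and so was Trp63, an epithelial transcription factor, at 2.66. Krt19 had 2.03, 2.19, 2.54 and 1.91 in the knockout pools, against 2.54, 4.03, 3.59 and 4.50 in the wild type pools. Without wild type 1 its groups did not overlap, and the difference was -1.50 ± 0.43 on 8 arrays and -1.87 ± 0.24 on 7 (limma adjusted p = 0.735 and 0.218); no gene had a smaller adjusted p on 7 arrays. The 8 epicardial genes, on the other hand, were high in the same wild type pool as the members, with a centred mean of 0.26, -0.51, 0.62 and -0.47 in the knockout pools, against -0.48, -0.27, -0.11 and 0.48 in the wild type pools. The 2 brightest markers of each of 5 lists, which were the globins Hbb-y and Hbb-bh1, the smooth muscle genes Acta2 and Tagln, the endothelial genes Kdr and Plvap, the mesenchymal genes Prrx2 and Postn, and the keratins Krt8 and Krt18, were well above background in the 4 knockout pools and in wild type 2, 5 and 7. The part of tissue composition in the members' values was not tested. Endothelial and endocardial genes had a centred mean from -0.28 to 0.24 in the knockout pools, against -0.12 to 0.042 in wild type 2, 5 and 7.

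**Figure D5:**
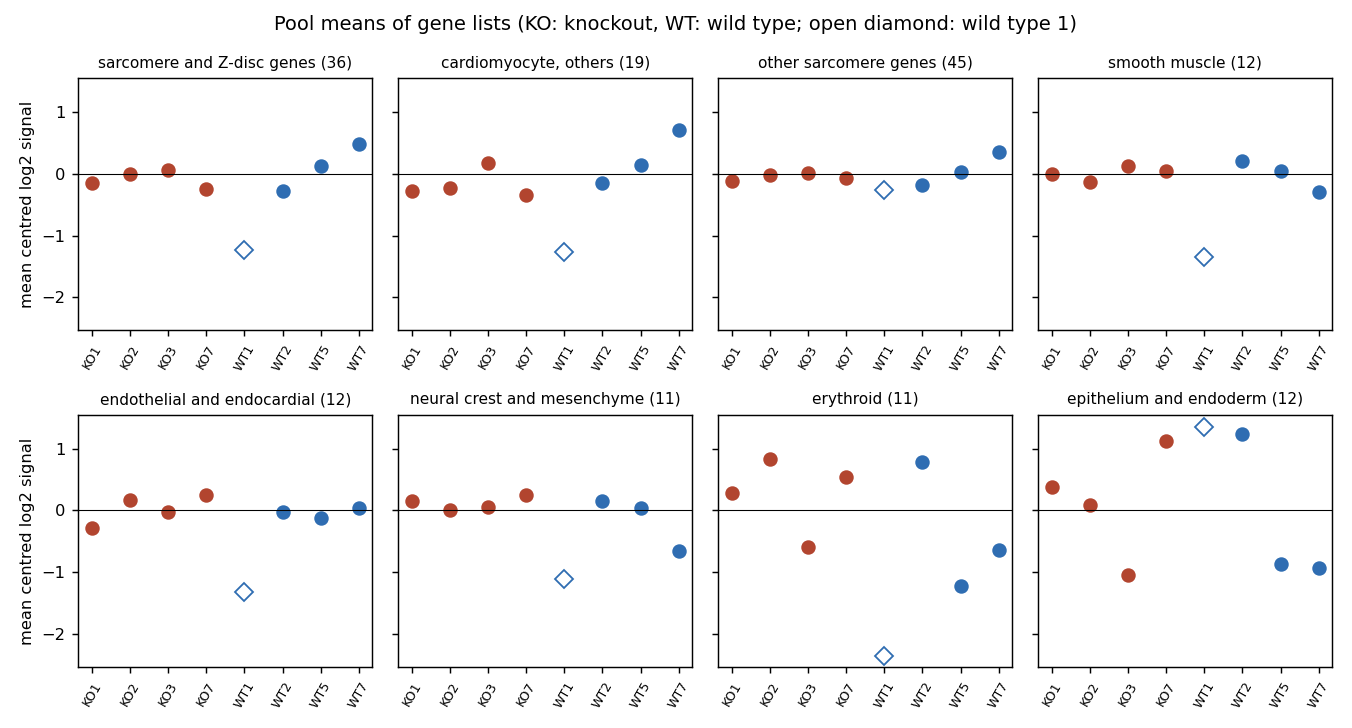
Mean over a gene list of the log2 signal centred on each gene's mean in the 7 pools other than wild type 1, by pool, with the number of genes in brackets. Knockout pools (KO) are red and left of wild type pools (WT) in blue, and the open diamond is wild type 1; the sarcomere and Z-disc genes and the other cardiomyocyte genes peak in wild type 7, where the crest, smooth muscle, erythroid and epithelial lists lie below 0.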

How the data were processed

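Gene expression was measured on 8 one-colour Agilent arrays (design 028005, probes of 60 bases placed on mm9), 1 per pool. Per the labels, RNA was taken with columns without DNase treatment, had an integrity number above the submitters' limit, and was labelled with Cy3 from 50 ng. The authors deposited a scanner file per array (Agilent Feature Extraction 10.7.3.1) and a matrix that repeats the same signals to within 0.497%. The deposited processed signals are in the unit intensity, on a linear scale, background-subtracted per the file headers and not scaled between arrays. Flags for spots well above background are from the same files.

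From these, log2 signals minus the log2 of each array's 75th percentile were computed over 59305 spots that are not controls. Spots of 1 probe were averaged, giving 55681 probes. A probe counted as measured if, in 1 group, 3 or more arrays had it well above background. Of these, 34 probes were dropped for a spot marked unusable, which left 33404 on 8 arrays and 32384 on 7. Genes were named through accession for 26056 probes, otherwise by the file's own name, and each gene was represented by its brightest measured probe on average. This gave 24388 genes on 8 arrays and 23760 on 7. The test was two-sided and used lmFit and eBayes of limma 3.58.1 (R 4.3.3), adjusted by Benjamini-Hochberg over all genes, at a threshold of 0.05. The fit was tested on simulated data. Precision is limited by the number of arrays. The labels do not say which embryos or litters went into which pool, so p-values measure only the spread between these pools.

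The members, roles, marker lists and tests were chosen with earlier results of these data known. All 36 members are named. Values per pool are printed for the 8 members with the smallest p on 8 arrays and the 8 on 7 arrays, the 5 with the highest mean signal, skeletal-type members and chamber-type markers. Of the 2 lists of other sarcomere genes and regulators, the 3 genes with the smallest p on 7 arrays are named. Of the cell type lists, the brightest markers and some genes with the smallest p on 7 arrays are named. The other genes of these lists were chosen after their values were seen. The alternatives tried were other scaling (quantile, median), normexp background with an offset of 50, all probes without the dim filter, gene values averaged over probes, array weights, the matrix values, pool number or slide column as a block, and leaving out pools.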

Additional observations from a re-analysis of the deposited data

Results flagged for a closer look

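In each group, the highest or lowest of the 4 pools was compared with the nearest of the others, for all 36 members in both groups. Of 72 such groups, 5 held a pool whose gap took up an unusually large part of the group's range, where chance at about 1 in 20 gives 3.6. The array of wild type 1 gave 3 of them. Myh7, the beta myosin heavy chain, was 6.54 there, against 8.59 to 8.96 in the other 3 wild type pools. Xirp1, a Xin repeat protein, was 0.68 there, against 2.06 to 2.33 in those pools. Tnnc2, the fast skeletal troponin C, was far above the others at 0.56, against -3.53 to -3.07 in those pools. Knockout 2 gave the other two. Ankrd1, the titin-binding ankyrin repeat protein, was 6.68 there, against 6.38 to 6.40 in the other 3 knockout pools. Nebl, the nebulette, was -2.39 there, against -2.98 to -2.88 in those pools.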

How the results depend on the processing

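No member passed an adjusted p of 0.05 in any of the settings tried. The count of all genes past it was 8 with array weights and 22 with median scaling without wild type 1, and 0 in the others. Members lower at an unadjusted p under 0.05 numbered 0 on 8 arrays, 3 with quantile scaling, 4 with normexp background, 4 with array weights, and 0 to 4 when 1 pool was left out (4 without wild type 1, 1 without knockout 3). Without wild type 1 they numbered 5 with quantile, normexp and median scaling alike. The share of all genes lower at that level was 1.12% on 8 arrays and 4.36% without wild type 1. It was not counted in the other settings, so the member counts there cannot be read against a background. Members whose groups did not overlap numbered 0 on 8 arrays, 5 with quantile scaling and 5 with normexp background, and without wild type 1 they numbered 1, and 5, 5 and 2 with quantile, normexp and median scaling. The median difference of the members, 0.22 on 8 arrays, turned negative with quantile scaling (-0.12), normexp background (-0.14), array weights (-0.13), and without wild type 1 under quantile (-0.17), normexp (-0.17) and median scaling (-0.39). It ran from -0.18 (without wild type 1) to 0.49 (without wild type 7) when 1 pool was left out, and was -0.031 without wild types 1 and 7, a setting chosen after seeing the data. Median scaling of 8 arrays gave 0.76, beside a median of 0.67 over all genes. The median of all genes was -0.30 with no filter on dim probes, and without wild type 1 it was -0.0025 with quantile and -0.15 with median scaling. The cause of these turns was not tested. Members whose sign differed from the 8-array fit numbered 25 with quantile scaling, 26 with normexp background, 26 with array weights, 7 with median scaling, 26 without wild type 1, 14 without wild types 1 and 7, and 0 to 4 in the remaining single changes. The shared pool numbers 1, 2 and 7 are not stated to pair the pools, and same-numbered pools correlated at -0.15, 0.32 and -0.41 in their deviations. Pools of different number ran from -0.50 (knockout 7 with wild type 5) to 0.48 (knockout 7 with wild type 1). The deviations are from a wild type mean that includes wild type 1, so the correlations cannot decide on pairing. With the pool number as a replicate block the members' median was 0.29, with 8 of 36 below 0 and 0 genes past the threshold. Dim probes limit Ckm, Tnnc2 and Nebl most, since their signals were the lowest relative to the array's 75th percentile, and 4 or 3 pools per group limit every value.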
